A study of Mus musculus with 11 samples.

Results

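The genes described here are the chemokines and the chemokine receptors of the mouse, taken by symbol from the 2 deposited count tables. The 60 members among 24421 symbols are 39 ligands, 17 typical receptors and 4 atypical receptors. They were compared between genotypes in mesenchymal progenitors sorted from hindlimb muscle and in whole lysates of the tibialis anterior (TA), a muscle of the shin. The series describes tamoxifen-treated mice with the inducible Cre recombinase Hic1CREERT2, driven from the Hic1 locus, and a tdTomato reporter. The sort on tdTomato means that the WT progenitors carried both as well, and for the WT lysates this is not stated. WT mice had only wild-type Ctnnb1, the gene of beta-catenin, and WT/flox mice had 1 allele with loxP sites around exon 3, whose removal leaves a beta-catenin that escapes degradation. The question was what active beta-catenin in these progenitors does in resting muscle. Progenitors were sorted as CD45- CD31- Sca1+ tdTomato+ alpha7- cells from 3 WT mice and 3 WT/flox mice. All 3 WT libraries and WT/flox replicates 1 and 2 were taken at day 14 after tamoxifen, and WT/flox replicate 3 was taken at day 56. The deposited sample table gives WT replicate 2 and WT/flox replicate 1 as female and the other progenitor libraries as male. The lysates came from 2 WT and 3 WT/flox males at day 56. Each library is a different animal, and the labels used here give no ages. The animal numbers of the WT lysates share one beginning and those of the WT/flox lysates another, and what that beginning stands for is not stated, so that genotype and this split cannot be told apart.

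Chemokines are small secreted proteins that are held on heparan sulfate of the matrix and of vessel walls and that guide cells along their gradients. They act on typical receptors, which couple to inhibitory G proteins and move leukocytes, stem cells and some stromal cells. Atypical receptors bind chemokines without this G protein signal and take them up, carry them across cells or degrade them, and so shape the gradients. In muscle, the fibro/adipogenic progenitors of the interstitium are a known source of ligands for monocytes, neutrophils and eosinophils.

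The progenitor libraries held 13119843 to 16805238 counts and the lysates 16892158 to 19449227. Levels are in CPM, a count relative to the library total scaled by the trimmed mean of M values (TMM). Before that scaling, 3 counts correspond to 0.154 to 0.229 CPM. Axin2, a direct target of beta-catenin, stood at 3.47 ± 0.696 CPM (SD, n = 3) in WT progenitors and at 154 ± 17.2 in WT/flox progenitors. Ctnnb1 itself was at 482 ± 38.3 and 402 ± 23.1 CPM (edgeR adjusted p = 0.673), and since this count takes in every exon it cannot show the loss of 1. The leukocyte markers Ptprc, Coro1a and Laptm5 summed to 0.377 to 2.12 CPM in WT progenitors, to 0.834 to 1.18 CPM in WT/flox progenitors and to 4.85 to 18.1 CPM in the lysates.

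Counted in the whole series, 13 members had no count in any of the 11 libraries: Cxcr1, Ccl20, Ccl1, Ccr6, Ccl21a, Ccl21b, Ccl21c, Ccl27b, Cxcl3, Cxcl15, Ccl26, Cxcl17 and Ccr4. The 3 copies of Ccl21 and Ccl27b have near-identical copies in the genome, so that their 0 and the values of Ccl19 and Ccl27a depend on how shared reads were counted. In the progenitors 21 members passed the filter on low counts, 16 ligands and 5 receptors. The other 39 were at 0 in all 6 libraries (20 members) or had a total of at most 53 counts over them (19 members, with a median total of 4). In the lysates 19 members passed, 12 ligands and 7 receptors. Of the other 41, 16 were at 0 and 25 had at most 39 counts in total, with a median total of 8. The 14 members tested in both materials included Cxcl14, Cxcl12, Ccl11, Cxcr4 and all atypical receptors. Ccl2, Ccl7, Ccl8, Ccl19, Cxcl1, Cxcl10 and Cxcl13 were tested only in progenitors, and Ccl6, Ccl9, Ccl24, Cx3cr1 and Ccr2 only in lysates.

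Divided by exon length, the levels in WT progenitors had a steep order. Cxcl14, a ligand of resting epithelia and stroma whose receptor is debated, was at 558 ± 125 CPM per kb (SD, n = 3) and Ccl11, the eosinophil ligand eotaxin, at 544 ± 77.9, and these 2 did not differ beyond their spread. Ackr3, the atypical receptor that takes up Cxcl12, followed at 312 ± 39.7 CPM per kb. Cxcl12, the ligand of Cxcr4 that retains stem cells and leukocytes in their niche, stood at 43.3 ± 8.88 CPM per kb. Cxcl1, a neutrophil ligand, was at 36.2 ± 9.99, Ackr1, which binds many inflammatory chemokines, at 29.5 ± 7.57, and Ackr2, a scavenger of inflammatory CC ligands, at 26 ± 8.84, and the ranges of these neighbours overlapped. The monocyte ligands Ccl7 and Ccl2 were at 13.8 ± 6.05 and 11.9 ± 4.33 CPM per kb, Cxcl16, a membrane-bound ligand of Cxcr6, at 9.18 ± 1.8 and Cxcl13, the ligand that draws B cells to follicles, at 7.46 ± 4.46. Ackr4, a scavenger of Ccl19, Ccl21 and Ccl25, was at 1.4 CPM per kb and Cxcr4 at 0.959. Cxcr4 was the one typical receptor that passed the filter in progenitors, and the atypical receptors made up 99.7% to 99.8% of all receptor counts in WT progenitors and 97.6% to 99% in WT/flox progenitors.

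**Figure D1:**
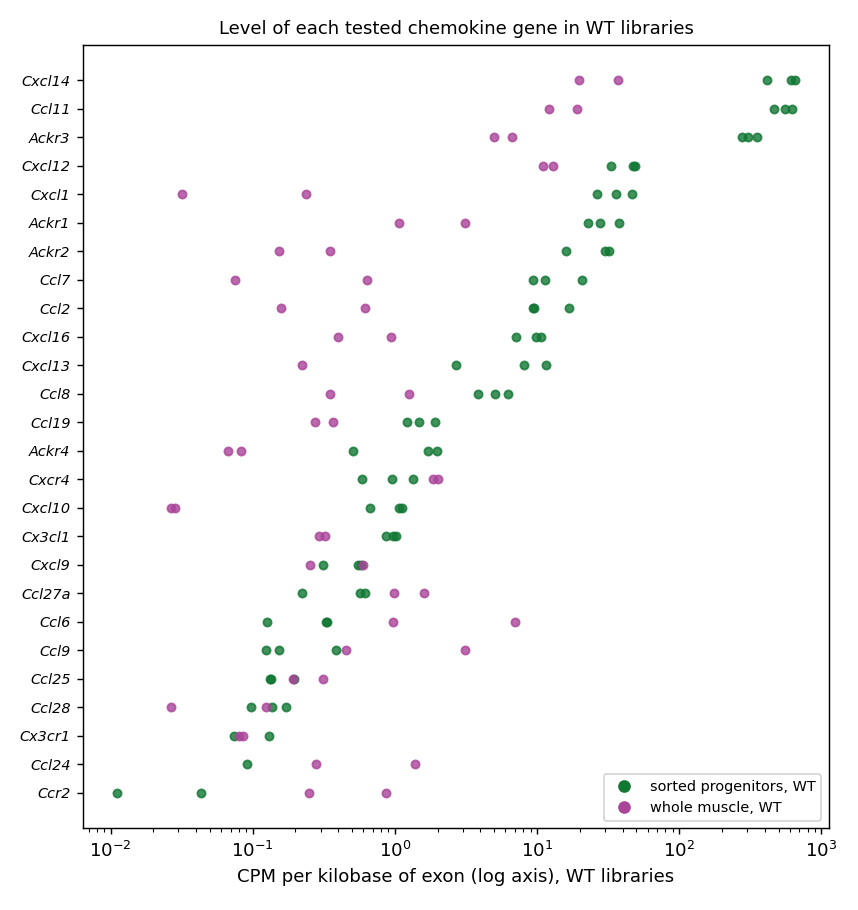
Levels of the tested chemokine genes in the WT libraries, in TMM-scaled CPM per kb of exon on a log axis, with a point for each sorted progenitor library (n = 3) and each whole muscle lysate (n = 2); libraries at 0 are not drawn. Cxcl14 and Ccl11 lead in the progenitors, at 558 and 544 CPM per kb, and stand at 28.4 and 15.6 in the lysates.

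In the progenitors 8 of the 21 tested members (38.1%) differed between genotypes at an adjusted p under 0.05 in edgeR's quasi-likelihood test, where 3.66% of all 12392 genes tested did. Both receptors among them, Cxcr4 and Ackr4, were higher in WT/flox, where 2.34% of all genes were called higher. The 6 ligands called, Ccl2, Ccl11, Cxcl1, Cxcl12, Cxcl13 and Cxcl16, were lower, where 1.32% of all genes were called lower. The groups did not overlap for 14 members, 4 higher and 10 lower, against 16.9% of all genes tested. An unadjusted p under 0.05 was reached by 14 members, against 12.5% of all genes. The median log2 fold change of the 21 members was -0.24, and that of all genes was 0.0012. With 1 library left out at a time, the count was 6, 7 and 3 without WT replicates 1, 2 and 3, and 5, 1 and 2 without WT/flox replicates 1, 2 and 3. Cxcr4 was called in all of these fits, and no called member changed its direction in any of them.

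**Figure D2:**
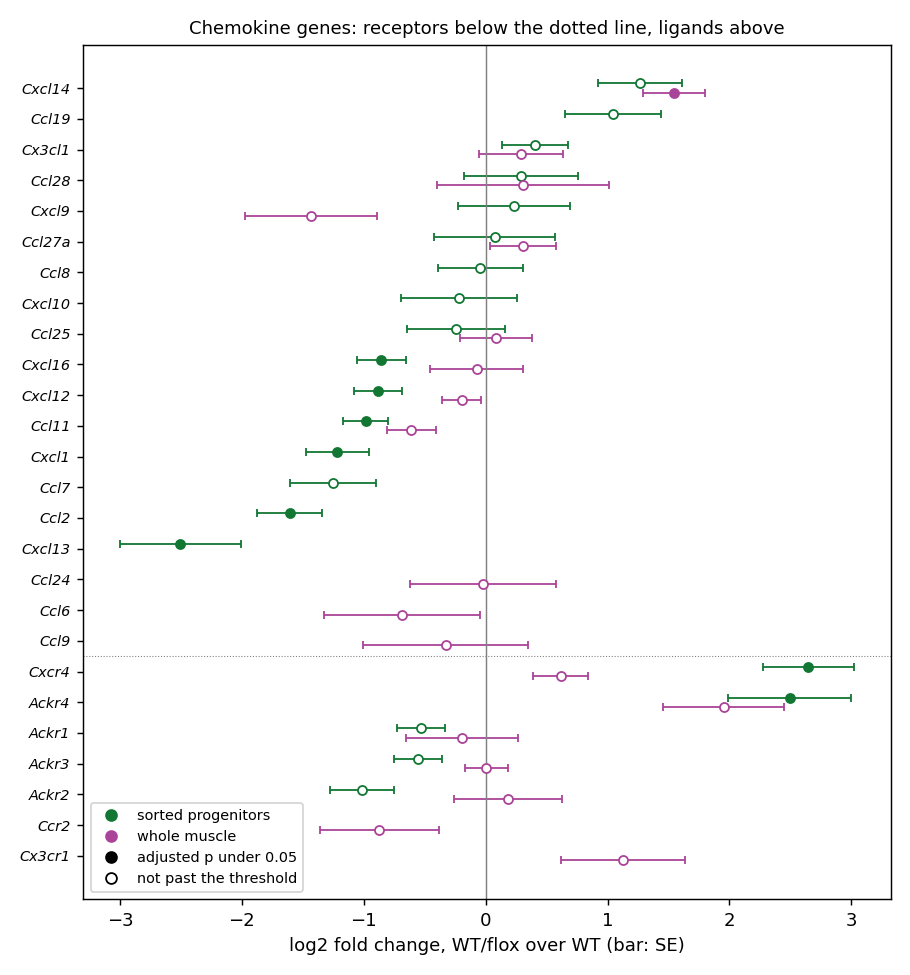
Log2 fold change of each tested chemokine gene, WT/flox over WT, in sorted progenitors and in whole muscle, with bars of 1 standard error; filled points passed the adjusted p threshold of 0.05. In the progenitors the filled points are 6 ligands below 0 and Cxcr4 and Ackr4 above 0, and in muscle the only filled point is Cxcl14.

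Cxcr4, which lies on chromosome 1 (128588199 to 128592293 of GRCm38, minus strand), is the receptor through which Cxcl12 steers migration. It was counted at 1.73, 1.06 and 2.41 CPM in WT progenitors and at 8.07, 16.1 and 8.79 CPM in WT/flox progenitors. Every WT/flox library stood above every WT library, and the day 56 library lay within the range of the day 14 ones. The means were 1.73 ± 0.677 and 11 ± 4.42 CPM (SD, n = 3 each), a rise of 6.27-fold (log2 fold change 2.65, SE 0.37, edgeR adjusted p = 0.00338), and the log2 fold change lay between 2.27 and 2.98 over 11 other settings of the processing. These means rest on raw counts of 16 to 41 per WT library and 110 to 218 per WT/flox library. Among leukocyte markers, Ptprc was at 0.347 ± 0.227 CPM in WT progenitors against 0.321 ± 0.109 in WT/flox progenitors. The 8 macrophage and monocyte markers summed to 6.1, 9.53 and 9.59 CPM in WT and 5.5, 15 and 6.6 CPM in WT/flox progenitors. WT/flox replicate 2, the library with the highest Cxcr4, had the highest sum of these markers and also of the neutrophil (1.47 CPM) and B cell markers (1.03 CPM). The other leukocyte lists peaked elsewhere. The markers of all leukocytes were highest in WT replicate 3 (2.12 CPM, against 1.18 in WT/flox replicate 2). Dendritic (3.89 CPM) and mast cell markers (0.807 CPM) were highest in WT/flox replicate 1. T and NK cell and eosinophil markers were at 0 in WT/flox replicate 2. The part of these cells in the Cxcr4 values was not tested.

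Ackr4 (chromosome 9, 104084157 to 104126933) was counted at 9.26, 2.71 and 10.6 CPM in WT progenitors and at 21.5, 45.8 and 60.04 CPM in WT/flox progenitors. The groups did not overlap, the lowest library of each group was the female one, and the highest was that of day 56. Ackr4 rose 5.63-fold (log2 fold change 2.49, SE 0.51, edgeR adjusted p = 0.0323). The adjusted p was 0.127 without WT replicate 1, 0.1 without WT replicate 3, 0.105 without WT/flox replicate 2 and 0.11 without replicate 3, the day 56 library. Exons of Acad11 on the other strand overlap those of Ackr4 over 479 bases, and Acad11 was at 12 ± 2.18 and 14.6 ± 2.82 CPM (adjusted p = 0.78).

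The other 3 atypical receptors had lower means in WT/flox progenitors without passing the threshold. Ackr2 was at 94.6, 49.6 and 99.9 CPM in WT and 34.4, 37.1 and 49.4 CPM in WT/flox progenitors (log2 fold change -1.01, SE 0.27, edgeR adjusted p = 0.0787). The highest WT/flox library lay just below the lowest WT library, and again the female WT library was the lowest of its group. Ackr3, the most abundant receptor, was at 928, 1017 and 1189 CPM in WT and 826, 607 and 699 CPM in WT/flox (log2 fold change -0.56, SE 0.20, edgeR adjusted p = 0.224). Ackr1 stood at 53.1, 32.3 and 38.8 against 30.9, 29 and 26.1 CPM (log2 fold change -0.53, SE 0.20, adjusted p = 0.266). Ackr1 is known from the endothelium of venules, and the 7 endothelial markers (0 called by edgeR or DESeq2, and 0 at an unadjusted p under 0.05) summed to 34.3, 7.41 and 33.2 CPM in WT and 19.96, 25.6 and 18 CPM in WT/flox progenitors. Their part in these values was not tested. Exons of Ackr1 also share 361 bases with Cadm3 on the same strand, which was at 403 and 278 CPM (adjusted p = 0.226).

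**Figure D3:**
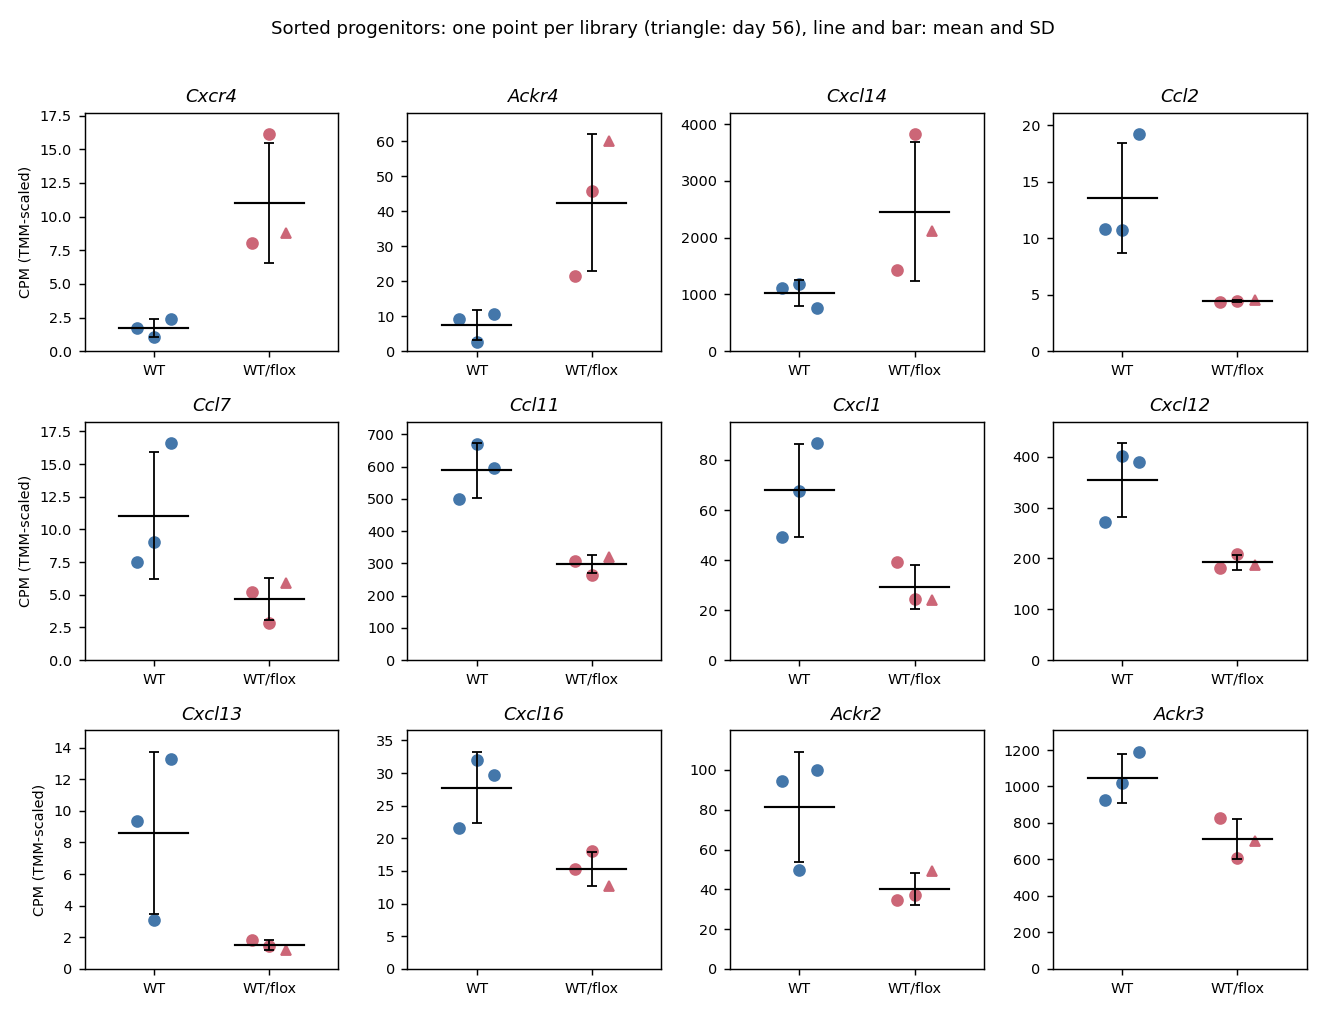
TMM-scaled CPM of 12 chemokine genes in each sorted progenitor library, with the mean as a line and the SD as a bar for 3 WT and 3 WT/flox libraries; the triangle is the WT/flox library of day 56. Cxcr4 and Ackr4 are higher in each WT/flox library than in any WT library, and Ccl2, Ccl11, Cxcl1, Cxcl12, Cxcl13 and Cxcl16 are lower in each.

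Among the ligands, the CC genes of monocytes and the eosinophil ligand Ccl11 sit side by side on the plus strand of chromosome 11, in the order Ccl2 (82035571 to 82037453), Ccl7 (82045712 to 82047525), Ccl11 (82057823 to 82062955), Ccl12 and Ccl8 (82115185 to 82116799). Ccl2, the main ligand of the monocyte receptor Ccr2, was at 10.8, 10.7 and 19.2 CPM in WT and 4.33, 4.49 and 4.55 CPM in WT/flox progenitors. The 3 WT/flox libraries were nearly equal, and each lay below every WT library. Ccl2 fell 3.04-fold (log2 fold change -1.61, SE 0.27, edgeR adjusted p = 0.0089), and its adjusted p was 0.0606 without WT/flox replicate 2. Ccl7, another monocyte ligand, was at 7.53, 9.07 and 16.6 against 5.21, 2.87 and 5.91 CPM (log2 fold change -1.25, SE 0.35, edgeR adjusted p = 0.107). These groups did not overlap either. Ccl8, at the far end of the group, was at 1.96, 2.58 and 3.18 against 2.42, 1.77 and 3.34 CPM (log2 fold change -0.04, SE 0.35, adjusted p = 0.997).

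Ccl11 lies between them and was far more abundant. It was counted at 501, 669 and 596 CPM in WT progenitors and at 308, 265 and 320 CPM in WT/flox progenitors. The means of 588 ± 84.2 and 298 ± 29.1 CPM (SD, n = 3 each) did not overlap in their libraries, and Ccl11 fell 1.98-fold (log2 fold change -0.98, SE 0.19, edgeR adjusted p = 0.0169). The adjusted p rose to 0.0721, 0.0863 and 0.0711 without WT/flox replicate 1, 2 or 3, with log2 fold changes of -1.01, -0.91 and -1.04.

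Of the neutrophil ligands with the ELR motif, Cxcl1 was the one that passed the filter. It lies on chromosome 5 (90891241 to 90893115, plus strand) and was at 49.2, 67.6 and 86.7 CPM in WT progenitors and 39.2, 24.3 and 24 CPM in WT/flox progenitors. Each WT/flox library lay below every WT library. Cxcl1 fell 2.33-fold (log2 fold change -1.22, SE 0.26, edgeR adjusted p = 0.0307), with an adjusted p of 0.0669 without WT replicate 3, 0.155 without WT/flox replicate 2 and 0.141 without WT/flox replicate 3. Cxcl1 and Ccl2 can be induced by tissue digestion, and a list of 15 genes of the dissociation response summed to 6812, 15586 and 13926 CPM in WT and to 12906, 9482 and 8272 CPM in WT/flox progenitors. These sums overlapped between the genotypes, and edgeR called 0 of the 15, with 0 at an unadjusted p under 0.05 and 0 by DESeq2. The part of digestion in the values of Cxcl1 and Ccl2 was not tested.

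Cxcl12 (chromosome 6, 117168535 to 117181367) was at 271, 402 and 389.7 CPM in WT and 181, 209 and 187 CPM in WT/flox progenitors. The WT/flox libraries lay close together and all below the WT ones. Cxcl12 fell 1.84-fold, from 354 ± 72.6 to 192 ± 15 CPM (log2 fold change -0.88, SE 0.20, edgeR adjusted p = 0.0369). The adjusted p lay above 0.05 without WT replicates 2 (0.0979) and 3 (0.0641) and without WT/flox replicates 1 (0.169), 2 (0.106) and 3 (0.169). Of the 5 mural markers Cspg4 was called lower and the other 4 were not called. The 5 summed to 558, 697 and 454 CPM in WT and 440, 443 and 408 CPM in WT/flox progenitors. Every WT/flox sum lay below every WT sum. Of the 5, 2 had an unadjusted p under 0.05, and DESeq2 called 1 lower and 0 higher. The 6 myofibre markers summed to 14.3, 46.9 and 91 against 14.5, 17.6 and 19.5 CPM, with overlap. Of the 5 myofibre markers tested edgeR and DESeq2 called 0, with 4 at an unadjusted p under 0.05. Their part in the values of the ligands was not tested. The ratio of Cxcl12 to Cxcr4 in CPM was 156, 380 and 162 in WT and 22.4, 13 and 21.2 in WT/flox progenitors. Every WT/flox ratio lay below every WT ratio, which follows from the lower Cxcl12 and the higher Cxcr4 of every WT/flox library.

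Cxcl13 (chromosome 5, 95956951 to 95961068) had the largest fall of the tested members in fold terms. It was at 9.34, 3.11 and 13.3 CPM in WT and 1.83, 1.47 and 1.21 CPM in WT/flox progenitors, without overlap and with a wide spread in WT. The fall was 5.67-fold (log2 fold change -2.50, SE 0.50, edgeR adjusted p = 0.0236). Without WT replicates 1 or 3 the adjusted p was 0.066 or 0.0558, and without WT/flox replicates 1, 2 or 3 it was 0.0517, 0.126 or 0.117. Cxcl16 (chromosome 11, 70453983 to 70459984) was at 21.6, 32 and 29.7 against 15.3, 18 and 12.7 CPM, a 1.81-fold fall (log2 fold change -0.86, SE 0.20, edgeR adjusted p = 0.0495). This value lies at the threshold: the adjusted p was 0.131 and 0.0995 without WT replicates 2 and 3, and 0.167, 0.0809 and 0.207 without WT/flox replicates 1, 2 and 3. Zmynd15 overlaps exons of Cxcl16 on the other strand over 552 bases and was at 3.85 and 2.47 CPM (adjusted p = 0.655).

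2 ligands had higher values in every WT/flox progenitor library than in any WT library without passing the threshold. Cxcl14 (chromosome 13, 56288643 to 56296551) was at 1113, 1186 and 758 CPM in WT and 1437, 3817 and 2112 CPM in WT/flox progenitors. The means were 1019 ± 229 and 2455 ± 1227 CPM with the wider spread in WT/flox (log2 fold change 1.27, SE 0.34, edgeR adjusted p = 0.0902), and the adjusted p was 0.0367 without WT/flox replicate 1. Ccl19, the ligand of Ccr7, was at 1.05, 1.65 and 1.29 against 1.91, 4.05 and 2.35 CPM (log2 fold change 1.05, SE 0.39, edgeR adjusted p = 0.265). The remaining 7 tested ligands, Ccl8 among them, had adjusted p-values of 0.72 or more. Among them the Cxcr3 ligands Cxcl9 and Cxcl10, which interferon induces, stood at mean levels of 1.44 and 2.14 CPM in WT and 1.69 and 1.85 CPM in WT/flox progenitors.

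The receptors that read the ligands lower in WT/flox were scarce in the sorted cells. Ccr2, the receptor of Ccl2, had 1, 0 and 5 counts in WT and 1, 4 and 4 counts in WT/flox progenitors. Ccr3 for Ccl11, Cxcr2 for Cxcl1 and Cxcr6 for Cxcl16 had no count in any progenitor library, which allows up to 3 counts a library. Cxcr5, the receptor of Cxcl13, had 1 count in each of 2 WT/flox libraries and 0 in the others. Of this set Cxcr4 alone was above the filter.

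The make-up of the ligand counts differed between genotypes. Cxcl14 made up 55.8%, 49.5% and 39.4% of all ligand counts in WT progenitors and 71.5%, 87.6% and 78.6% in WT/flox progenitors. Ccl11 took 25.1% to 30.9% of them in WT libraries and 6.08% to 15.3% in WT/flox libraries, and Cxcl12 took 13.6% to 20.2% and 4.8% to 9.01%. In the lysates Cxcl14 held 21.3% and 31.1% of the ligand counts in WT and 53.5% to 58% in WT/flox. The shares of one library add up to a whole, so that a gain of one gene lowers the others.

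**Figure D4:**
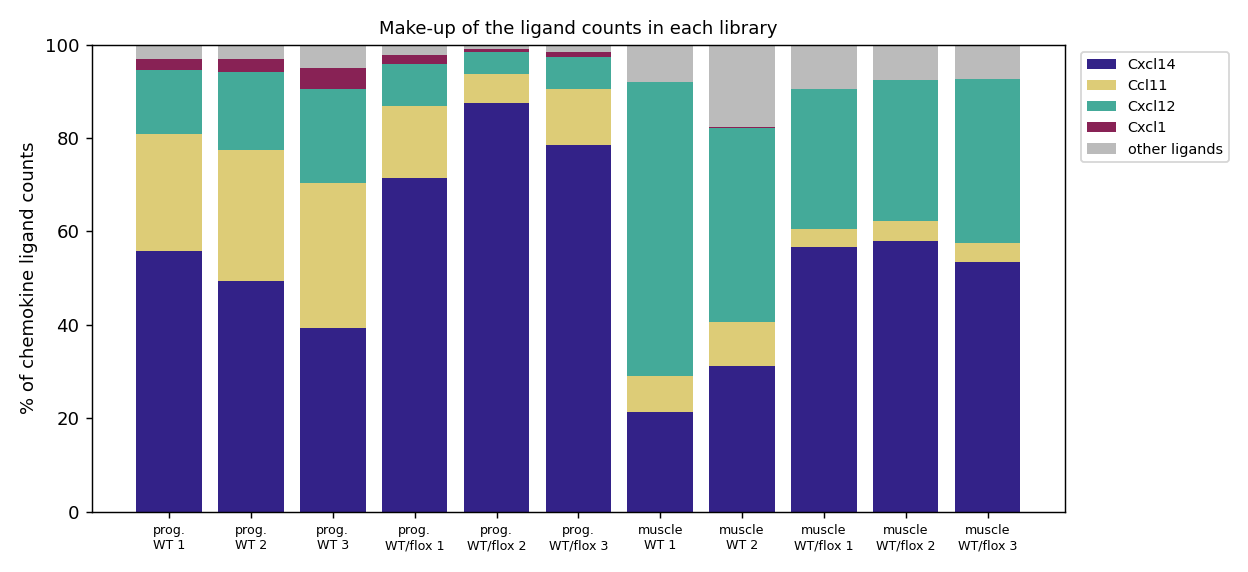
Share of all chemokine ligand counts, in percent, taken by Cxcl14, Ccl11, Cxcl12, Cxcl1 and the other ligands in each of the 6 progenitor and 5 whole muscle libraries, as stacked bars. In progenitors Cxcl14 takes 39.4% to 55.8% of the WT bars and 71.5% to 87.6% of the WT/flox bars.

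The promoters of 44 members are in the RefSeq table (GRCm38.p6), 5 of the 8 called progenitor genes among them: Ackr4, Cxcl1, Cxcl12, Cxcl13 and Cxcr4. The 250 bases before the start were searched on both strands for the NF-kB consensus, since NF-kB induces many inflammatory chemokines, and for the TCF/LEF core CTTTGAA or CTTTGAT, through which beta-catenin acts. Cxcl1 was the one of these 5 with an NF-kB match, and Cxcl12 the one with a TCF/LEF match. They are shown with the match in capitals, for Cxcl1 at chr5:90890995-90891244 and for Cxcl12 at chr6:117168285-117168534, both on the plus strand, 5′ to 3′. In Cxcl1 the capitals hold 2 overlapping matches, 1 on each strand, and in Cxcl12 they are CTTTGAT read on the other strand.
Cxcl1: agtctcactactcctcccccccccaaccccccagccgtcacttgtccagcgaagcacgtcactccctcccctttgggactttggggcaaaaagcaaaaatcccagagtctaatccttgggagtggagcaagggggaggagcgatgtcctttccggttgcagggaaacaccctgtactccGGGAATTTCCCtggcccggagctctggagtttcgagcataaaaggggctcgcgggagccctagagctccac
Cxcl12: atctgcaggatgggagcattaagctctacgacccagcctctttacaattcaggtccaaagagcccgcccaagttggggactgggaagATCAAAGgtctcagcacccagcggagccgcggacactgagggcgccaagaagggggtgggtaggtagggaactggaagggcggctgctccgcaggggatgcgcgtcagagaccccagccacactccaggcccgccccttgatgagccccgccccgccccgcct
Over all members, 9 of 51 windows held the NF-kB consensus, against 3.9% of the 32851 windows of the table, and 7 held the TCF/LEF core, against 7.48% of all. The NF-kB matches lay in Ackr2, Ccl20, Ccl9, Ccr3, Ccr6, Cxcl1, Cxcl10, Cxcl2 and Cxcl3, of which only Cxcl1 was called in the progenitors. A match is a run of letters, and no binding was measured here.

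Other genes of the pathway were taken from lists, whose counts stand against 3.66% of all progenitor genes called (2.34% higher and 1.32% lower) and 12.5% at an unadjusted p under 0.05. Of 27 tested genes of receptor signalling in the progenitors, 3 rose and 0 fell, with 5 at an unadjusted p under 0.05 and the same counts of 3 and 0 by DESeq2. Rgs2, which shortens G protein signals, rose from 4.81 ± 0.525 to 15.3 ± 3.95 CPM (log2 fold change 1.66, SE 0.24, edgeR adjusted p = 0.0036). Gnai1, an inhibitory G protein subunit, rose from 5.5 ± 2.34 to 14.1 ± 1.98 CPM (log2 fold change 1.35, SE 0.29, edgeR adjusted p = 0.0343), and Elmo1, which helps to activate Rac in migrating cells, 1.99-fold, from a mean of 19.8 ± 3.76 CPM to 39.5 ± 4.32 (SE 0.18 on the log2 scale, edgeR adjusted p = 0.014). The median log2 fold change of the 27 was -0.05. Of 26 tested inducers and NF-kB genes, edgeR called 0, with 4 at an unadjusted p under 0.05 and 1 called by DESeq2, and their median was -0.21. Of 6 chemokine-cleaving proteases 1 rose, cathepsin K (Ctsk), from 206 ± 24.2 to 376 ± 66.7 CPM (log2 fold change 0.87, SE 0.19, edgeR adjusted p = 0.0369). Of these 6, 2 had an unadjusted p under 0.05, and DESeq2 called 1 higher and 0 lower. Of 10 genes of heparan sulfate synthesis 1 fell, the chain polymerase Ext1, from 160 ± 14.3 to 95.3 ± 8.52 CPM (log2 fold change -0.75, SE 0.16, edgeR adjusted p = 0.0283). Of these 10, 4 had an unadjusted p under 0.05, and DESeq2 called 2 lower and 0 higher. Of 4 tested chemokine genes outside the symbol rule edgeR called 0, with 2 at an unadjusted p under 0.05 and 1 called by DESeq2. In muscle, where 0.727% of all genes were called and 9.69% had an unadjusted p under 0.05, edgeR called 0 of 30 tested genes of receptor signalling (2 at an unadjusted p under 0.05), 0 of 24 inducers and NF-kB genes (4), 0 of 8 proteases (2) and 0 of 10 heparan sulfate genes (0), and DESeq2 called 1 protease and no gene of the others.

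In whole muscle Cxcl14 had the highest mean level per kb in WT, followed by Ccl11 and Cxcl12, whose spreads overlapped. These levels come from a table scaled separately from that of the progenitors, and the materials were not tested against each other on levels. WT lysates held Cxcl14 at 28.4 ± 12.3 CPM per kb (SD, n = 2), Ccl11 at 15.6 ± 4.84, Cxcl12 at 12 ± 1.37 and Ackr3 at 5.85 ± 1.22. In WT/flox lysates Cxcl14 was at 82.7 ± 1.11 CPM per kb (SD, n = 3), Cxcl12 at 10.5 ± 1.29 and Ccl11 at 10.2 ± 0.321. Lower in the order of the WT lysates stood Ccl6, a ligand of myeloid cells, at 3.96, Ackr1 at 2.08 and Cxcr4 at 1.94 CPM per kb. Also in WT, Ccl9 was at 1.79, Ccl27a at 1.29 and the monocyte receptor Ccr2 at 0.56 CPM per kb. In a lysate, more cells of a type and more RNA per cell cannot be told apart.

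Of the 19 members tested in muscle 1 was called (5.26%), Cxcl14, where 0.727% of all 12654 genes were called, 0.514% higher and 0.213% lower. It was at 36 and 67.7 CPM in WT muscle and at 152, 152 and 149 CPM in WT/flox muscle. The 3 WT/flox libraries were nearly equal, above both WT libraries, which lay far apart. Cxcl14 rose 2.92-fold (log2 fold change 1.54, SE 0.26, edgeR adjusted p = 0.0487). The log2 fold change was 1.16 without WT replicate 1 and 2.07 without WT replicate 2, fits that each leave 1 WT library. Leaving out WT/flox replicate 1, 2 or 3 kept the log2 fold change between 1.54 and 1.55 and gave adjusted p-values of 0.0658, 0.164 and 0.257. The 9 progenitor markers, Col1a1 and Dcn the most abundant, summed to 571 and 911 CPM in WT and 1052 to 1258 CPM in WT/flox muscle. EdgeR called 0 of the 9, with 3 at an unadjusted p under 0.05, and DESeq2 called 2. The part of these in the Cxcl14 value was not tested.

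Groups did not overlap for 6 members in muscle, 4 higher and 2 lower, against 25.3% of all genes tested. 5 members had an unadjusted p under 0.05, against 9.69% of all. Ackr4 was at 0.359 and 0.448 CPM in WT and 2.37, 1.23 and 1.15 CPM in WT/flox muscle, from 6 and 7 counts against 23 to 45 (log2 fold change 1.95, SE 0.50, edgeR adjusted p = 0.194). Cxcr4 was at 3.35 and 3.65 against 5.38, 4.43 and 6.27 CPM (log2 fold change 0.61, SE 0.23, edgeR adjusted p = 0.407). Ccl11 was at 13.2 and 20.6 against 10.7, 11.4 and 11.2 CPM (log2 fold change -0.61, SE 0.20, edgeR adjusted p = 0.347). Cx3cr1, the receptor of patrolling monocytes, was at 0.359 and 0.384 against 1.11, 0.48 and 0.861 CPM (log2 fold change 1.12, SE 0.51, edgeR adjusted p = 0.54). Ackr4, Cxcr4 and Ccl11 had the sign they had in the progenitors. Of all members tested in both materials, Cxcl9, Ackr2, Ackr3 and Ccl25, none of them called, had opposite signs and the others the same sign. Cxcl9 was at 1.8 and 0.769 against 0.316, 0.32 and 0.766 CPM (log2 fold change -1.43, SE 0.54, edgeR adjusted p = 0.424), the upper WT/flox library coming level with the lower WT library.

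**Figure D5:**
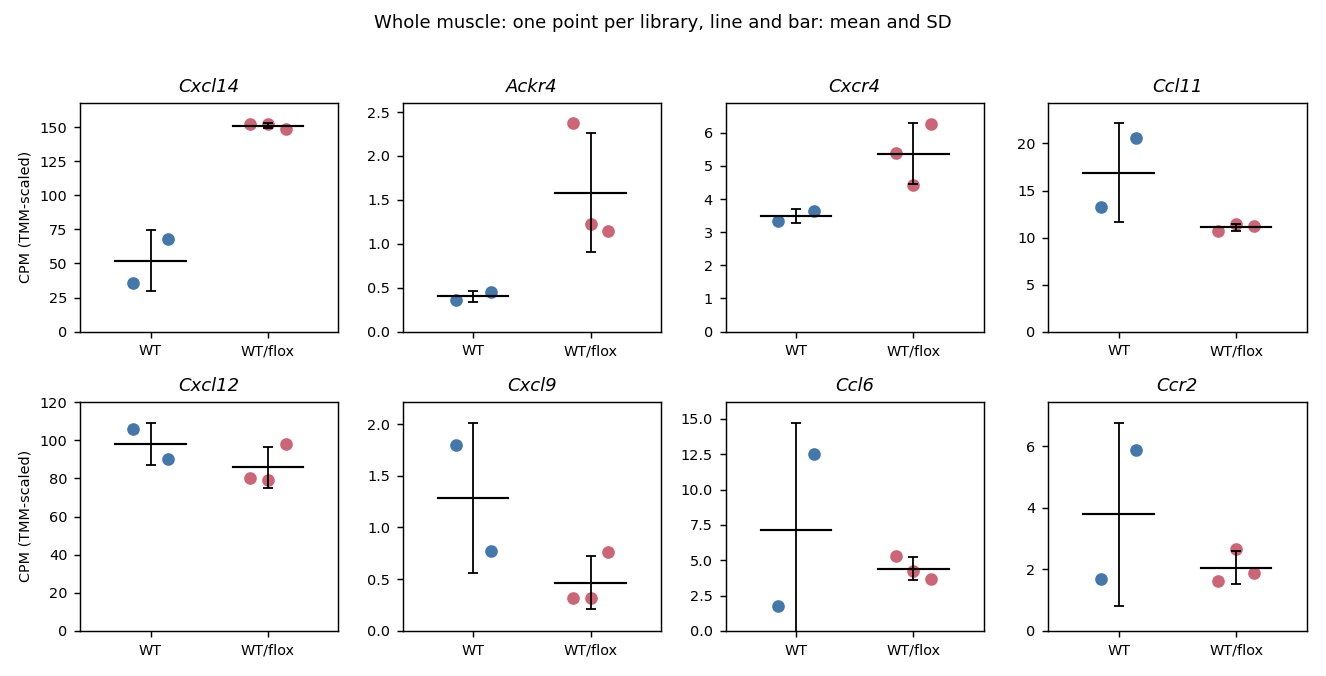
TMM-scaled CPM of 8 chemokine genes in each whole muscle library, with the mean as a line and the SD as a bar for 2 WT and 3 WT/flox libraries. Cxcl14 is at 149 to 152 CPM in the WT/flox libraries and at 36 and 67.7 in the WT libraries, which lie far apart for Ccl6 and Ccr2.

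3 members known from myeloid cells, Ccl6, Ccl9 and Ccr2, were highest in 1 WT library, while Cx3cr1 was not. Ccl6 was at 1.74 and 12.5 CPM in WT and 5.32, 4.22 and 3.68 CPM in WT/flox muscle, Ccl9 at 1.38 and 9.55 against 6.11, 2.51 and 4.35 CPM, and Ccr2 at 1.68 and 5.89 against 1.63, 2.67 and 1.87 CPM. In each of these 3 WT replicate 2 was the highest of the 5 libraries, and none was called (edgeR adjusted p = 0.831, 0.937 and 0.647). The 8 macrophage and monocyte markers summed to 38 and 117 CPM in WT replicates 1 and 2 and to 73.5 to 106 CPM in WT/flox muscle, in the same order for the WT libraries. Without WT replicate 1 the log2 fold changes of Ccl6, Ccr2 and Ccl11 were -1.50, -1.52 and -0.89. Without WT replicate 2 those of Ccl6 and Ccr2 were 1.34 and 0.29. Each of these fits leaves 1 WT library, so the spread within WT is not measured. Cxcl12 was at 106 and 90.4 CPM in WT and 80.2, 79.1 and 97.9 CPM in WT/flox muscle (log2 fold change -0.20, SE 0.16, adjusted p = 0.792). Ackr3 was at 16.7 and 22.5 against 20.6, 17.4 and 21 CPM (adjusted p = 0.996). The other 8 members tested in muscle, Ccl24, Ccl25, Ccl27a, Ccl28, Cx3cl1, Cxcl16, Ackr1 and Ackr2, had adjusted p-values of 0.821 or more.

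Among the ligands called in progenitors, Ccl2, Cxcl1 and Cxcl13 did not pass the filter on low counts in muscle. Ccl2 had 3 and 11 counts in WT and 0, 3 and 4 counts in WT/flox muscle, Cxcl1 had 1 and 7 against 1, 1 and 0, and Cxcl13 had 0 and 4 against 8, 0 and 3. With so few counts no direction was read from them.

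Whether the effect of the genotype differed between the materials was tested in 1 fit over all 11 libraries. EdgeR called 0 of the 27 members tested, against 0.769% of 13781 genes (0.247% higher and 0.522% lower in muscle). 4 members had an unadjusted p under 0.05, against 8.71% of all, and DESeq2 called 1, Cxcr4 (adjusted p = 0.0134). For Cxcr4 the log2 fold change was lower in muscle than in progenitors (interaction -1.97, SE 0.49, edgeR adjusted p = 0.108). For Cxcl12 the interaction was 0.74 (SE 0.28, edgeR adjusted p = 0.413), for Ackr2 1.26 (SE 0.56, adjusted p = 0.547) and for Cxcl9 -1.63 (SE 0.74, adjusted p = 0.561). The materials also differ in the day after tamoxifen of all but 1 progenitor library and in the sexes, so that material and day cannot be told apart.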

How the data were processed

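RNA was sequenced as paired 43-base reads from libraries of a stranded mRNA kit, per the labels' protocols. Among tools and builds, bcl2fastq 2.20, STAR, Bowtie and mm10 appear in the submitters' processing notes. How reads were assigned to genes, and whether by strand, is not given in the sources used here, so that overlapping genes on opposite strands cannot be told apart. The deposited values are whole-number counts per gene symbol, in 1 table for progenitors and 1 for lysates. The sample tables deposited with them gave sex; both call the cells FAPs, and for the lysates the labels were followed.

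Members are the symbols in both tables of the form Ccl, Cxcl, Ccr, Cxcr or Ackr with a number, plus Cx3cl1, Xcl1 and Cx3cr1. Members and gene lists were chosen with earlier results of these data known. Named with values are members called in any comparison, those with an unadjusted p under 0.05, the most abundant 8 ligands and 5 receptors of each material, and up to 4 called genes of each other list; genes of overlapping exons and markers of other cells are given where a result touches them. Scarce or uncalled members are given by counts.

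Each material was fitted alone with edgeR 4.0.16 in R 4.3.3 (filterByExpr, TMM, robust quasi-likelihood F test, two-sided), adjusted by Benjamini-Hochberg over all genes tested, with a threshold of 0.05. The SE of a log2 fold change is the one implied by the F statistic, and means of TMM-scaled CPM carry the SD. The tests were checked on simulated counts. P-values measure the spread between animals. Alternatives were DESeq2 1.42.0, size factors by relative log expression (RLE), no filter, sex as a covariate, a replicate block and leaving out each library. Coordinates and exon lengths are from GENCODE M21 (GRCm38); the lengths join all transcripts of a gene, which lowers the per-kb value of genes with long rare transcripts. Promoters are from RefSeq.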

Additional observations from a re-analysis of the deposited data

How the results depend on the processing

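Depth limits the scarce genes. In progenitors the lowest library held 16 counts of Cxcr4, 16 of Cxcl13 and 14 of Ccl19, and 59 of Ccl2 and 39 of Ccl7. Most members in muscle rest on few counts a library. The sample numbers limit all calls. The 8 progenitor calls became 1 to 7 when a library was left out, and the single muscle call became 0 to 4; with 1 WT lysate left, that library is assumed to vary like the WT/flox ones. In the interaction DESeq2 called 1 member and edgeR 0 in every alternative run. The replicate block, with numbers from the deposited sample tables and added after seeing the data, gave 8 and 1 calls. In that block Ackr2 (adjusted p = 0.03) and Ccl7 (0.0199) passed and Cxcl12 (0.0768) and Cxcl16 (0.0795) did not. By these numbers the WT progenitor animal 74A2 goes with WT/flox 74A1 and 72B8 with 72B7, each pair alike in sex and in the beginning of the animal number. Animals 73C3 and 74A3 share the sex only. Libraries of the same number correlated at -0.002, 0.281 and -0.194 in their deviations from the group means, and those of unlike numbers at -0.329 to 0.342. With so few pairs these values cannot show whether the numbers pair the progenitor samples. DESeq2 called 11 members in progenitors, adding Ackr2, Ccl7 and Cxcl14, and RLE 8; without the filter 7 remained, Ackr4 being lost, and with sex as a covariate 8 were called, with Ackr2 in and Cxcl16 out (adjusted p = 0.0507). Over all genes DESeq2 called 755 against 454 by edgeR in progenitors, 267 against 92 in muscle and 272 against 106 in the interaction. With a library left out, edgeR called 262 to 483, 0 to 239 and 54 to 114 genes, and in muscle it called 139 without the filter and 178 with the block.

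Of 336 values of named genes under alternatives, 278 kept direction and side of the threshold, 33 lost the call, 12 gained it and 13 changed sign, all 13 of uncalled genes in muscle. Ackr3 in muscle was at -0.0203 with the block. With 1 library left out, the log2 fold changes in muscle ran from -0.19 to 0.23 for Ackr3, -0.0051 to 0.69 for Ccl27a, -0.22 to 0.46 for Ccl25, -1.50 to 1.34 for Ccl6, -1.14 to 1.65 for Ccl9, -0.57 to 0.66 for Cxcl16, -1.52 to 0.29 for Ccr2 and -0.78 to 0.76 for Ackr1. The cause was not tested. The median over tested members ran from -0.59 to -0.10 in progenitors and from -0.22 to 0.69 in muscle.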
